A study of Mus musculus with 16 samples.

Results

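The endoplasmic reticulum (ER) chaperones and disulfide isomerases described here are 10 genes, Hspa5, Hsp90b1, Calr, Canx, Pdia3, Pdia4, Pdia6, P4hb, Hyou1 and Sdf2l1, taken by name from 48158 mouse genes. Their level in a library is the sum of the deposited FPKM (fragments scaled for transcript length and library size) over all transcripts of the gene. All 10 were among the 11790 genes that reached 1 FPKM in at least 2 libraries and were tested. The libraries came from hepatocytes of FVB mice, isolated with cycloheximide, which holds ribosomes on their messages. DDC mice had eaten a diet with DDC, a compound used to cause porphyrin accumulation and cholestatic liver injury, for 4 weeks, and chow mice served as controls. From each diet, polyadenylated RNA was sequenced from 4 pools: cytoplasmic RNA, monosomes (1 ribosome per message), light polysomes (2 to 4 ribosomes) and heavy polysomes (more than 5). There were 2 libraries in each of the 8 groups of diet and pool, 16 in all. The DDC fraction libraries came from preparations named B (replicate 1) and C (replicate 2), and the DDC cytoplasmic libraries carried the names C2 and D2. In chow, the preparations of the fractions were CH1_CH2 (replicate 1) and CH3_CH4 (replicate 2), names that point to pooled animals, and those of cytoplasm were CH1 and CH3. The labels do not say that libraries of a group came from separate animals, so p-values measure the spread between these libraries. Ages of the mice were not given in the sources used here.

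A secreted or membrane protein enters the ER unfolded, and the hepatocyte, which makes most plasma proteins, depends heavily on the folding machinery there. Hspa5 (BiP) is the ER member of the HSP70 family and binds exposed hydrophobic stretches in cycles of ATP hydrolysis, while Hsp90b1 (GRP94) is the HSP90 of the ER. Calreticulin (Calr, soluble) and calnexin (Canx, in the membrane) are lectins that hold glycoproteins through their trimmed sugar chains, and Pdia3 is the disulfide isomerase that works with them. When unfolded proteins build up, the sensors ATF6, IRE1 and PERK raise transcription of these genes, in part through a promoter motif named the ER stress response element (ERSE), which ATF6 reads together with the factor NF-Y.

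Promoters of the members were searched for the ERSE, and are given for the 3 members that differed by diet in at least 1 pool. RefSeq promoter windows (GRCm38.p6, from 250 bases before to 50 bases after each gene's start, 300 bases, written on the gene's strand) were matched for 9 of the 10 members, Hyou1 being the other. The windows are chr2:34771840-34772139 on the plus strand for Hspa5, chr10:86705395-86705694 on the minus strand for Hsp90b1 and chr8:84846882-84847181 on the minus strand for Calr. The ERSE was searched on both strands as CCAAT, any 9 bases and CCACG, and capitals mark its fixed letters, which read CGTGG and ATTGG where the motif lies on the opposite strand.
Hspa5 promoter: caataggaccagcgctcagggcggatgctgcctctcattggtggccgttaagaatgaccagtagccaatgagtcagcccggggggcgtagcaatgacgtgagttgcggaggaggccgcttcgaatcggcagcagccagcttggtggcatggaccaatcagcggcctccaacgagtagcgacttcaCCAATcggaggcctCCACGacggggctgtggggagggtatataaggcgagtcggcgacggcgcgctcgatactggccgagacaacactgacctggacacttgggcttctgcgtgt
Hsp90b1 promoter: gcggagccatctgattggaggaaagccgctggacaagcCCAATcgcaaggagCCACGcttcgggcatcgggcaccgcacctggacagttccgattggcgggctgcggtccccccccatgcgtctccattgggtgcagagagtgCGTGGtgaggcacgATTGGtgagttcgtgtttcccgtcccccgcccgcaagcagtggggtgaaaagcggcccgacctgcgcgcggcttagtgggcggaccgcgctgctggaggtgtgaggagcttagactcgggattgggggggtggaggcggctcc
Calr promoter: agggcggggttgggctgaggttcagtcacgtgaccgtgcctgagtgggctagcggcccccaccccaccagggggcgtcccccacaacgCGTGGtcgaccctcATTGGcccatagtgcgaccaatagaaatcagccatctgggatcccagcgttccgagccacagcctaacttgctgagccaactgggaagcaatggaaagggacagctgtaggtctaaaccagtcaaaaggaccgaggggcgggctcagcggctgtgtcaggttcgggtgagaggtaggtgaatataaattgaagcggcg
The motif began 65 bases before the start of Hspa5. Hsp90b1 had it 2 times, 212 bases before the start and, on the opposite strand, 107 bases before it. Calr had it once, on the opposite strand, 162 bases before the start. The matches in Canx and Pdia6, 19 bases each, began 145 and 98 bases before their starts, both on the gene's own strand.
Canx ERSE: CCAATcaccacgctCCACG
Pdia6 ERSE: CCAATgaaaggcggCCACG
In all, 5 of the 9 member windows held the full ERSE on either strand, against 39 of 32851 windows (0.119%), a count that includes the members. The windows of Pdia3, Pdia4, P4hb and Sdf2l1 did not hold it. Because the motif was searched as one already known for these genes, the count is a description and not a test. Its outer parts are common, and a full match holds both of them. CCAAT was present in 9 of 9 members and in 37.4% of all windows, and CCACG in 8 of 9 members and in 32.8% of all. The related motif ERSE-II (ATTGG, any 1 base and CCACG) and the motif TGACGTGG were in 0 of 9 member windows, against 0.0365% and 0.676% of all windows. A match describes letters in a window, and binding was not measured.

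FPKM totals over genes ran from 373976 to 1379630 per library, lowest in cytoplasm and highest on heavy polysomes. From the smallest step in each library, 1 fragment per kilobase was worth 0.0154 to 0.09 FPKM, so a member rested on about 540 to 143505 fragments. In the 4 chow libraries of replicate 1, the Y-linked genes Ddx3y, Eif2s3y, Kdm5d and Uty were at 0 and Xist was at 0.039 to 2.445 FPKM, while Xist was at 0 and Eif2s3y at 4.197 to 34.489 FPKM in the other 12 libraries. These values point to female mice in chow replicate 1 and male mice in the other libraries, which the labels used here do not state. Sex would then differ between the chow replicates and not be balanced between the diets. Results are also given without the 4 chow libraries of replicate 1 where a call is lost. Hepatocyte markers summed to 10500 to 16900 FPKM in DDC and 16600 to 23100 FPKM in chow cytoplasm, and Alb was listed at 0 in all 16 libraries. On light polysomes they summed to 6770 to 9570 FPKM in DDC against 16700 to 17900 FPKM in chow. On heavy polysomes the sums were 11700 to 17400 against 38900 to 44800 FPKM. In cytoplasm 3 of 9 tested hepatocyte markers were called lower in DDC and 0 higher, beside 9.68% and 12.7% of all genes. On light polysomes it was 4 of 7 lower and 0 higher, beside 13.5% and 16.6%. Macrophage markers moved with the diet: they summed to 631 to 996 FPKM in DDC cytoplasm against 97.1 to 127 FPKM in chow cytoplasm, and to 5030 to 5910 against 297 to 495 FPKM on heavy polysomes. In cytoplasm 9 of 12 macrophage markers were called higher in DDC, beside 12.7% of all genes. So were 5 of 6 tested cholangiocyte markers, 6 of 9 tested stellate markers and 0 of 8 tested endothelial markers. The cholangiocyte markers Krt7 and Cftr, the stellate marker Acta2 and the endothelial marker Tek stayed below 1 FPKM everywhere. Plasma cells are rich in ER chaperones, and of their 12 listed markers Jchain, Mzb1, Tnfrsf17, Pou2af1, Prdm1 and Irf4 were below 1 FPKM in all 16 libraries. Of the 6 plasma cell markers that were tested, 2 were called higher in DDC cytoplasm and 0 lower. The plasma cell list as a whole also includes Xbp1, Derl3, Sdc1, Igkc, Ighm and Igha. It summed to 303 to 333 FPKM in DDC and 143 to 190 FPKM in chow cytoplasm. The part of these other cell types in the members' changes was not tested, and in bulk RNA fewer cells of a type and less RNA per cell cannot be told apart.

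The first question was how the diet changed the chaperone messages in total cytoplasmic RNA. Together the 10 members made up 0.89% and 1.036% of the FPKM of the DDC cytoplasmic libraries, against 0.487% and 0.446% in chow cytoplasm. Much of this difference came from Calr. It held 1645 and 1595 FPKM of the members' 3974.1 and 3873.2 FPKM in DDC. In chow it held 544.7 and 631.1 FPKM of 2170.8 and 2224.9 FPKM. For 8 of the 10, both DDC libraries were above both chow libraries, with ratios of the means from 1.29 to 2.76. The exceptions were Hyou1 and Sdf2l1. Among all tested genes, 38.4% had both DDC libraries above both chow libraries and 36.1% both below. The median log2 change of the members was 0.49, against 0.01 for all genes. Only Calr passed the test (limma on log2(FPKM + 1), adjusted p under 0.05 over all genes), 1 of 10 members, where 12.7% of all genes were called higher and 9.68% lower (22.4% in either direction). With each library scaled to the same FPKM total, P4hb was also called higher (0.85, adjusted p = 0.00976 by limma), and under quantile normalization P4hb and Pdia3 were (0.93 and 1.03, adjusted p = 0.00802 and 0.0414).

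Calr, a calcium-binding lectin chaperone, had 1645 and 1595 FPKM in DDC cytoplasm, against 544.7 and 631.1 FPKM in chow cytoplasm. Every DDC library exceeded every chow library by more than the spread within either diet. Its log2 change was 1.46 (SE 0.38, adjusted p = 0.0172 by limma, n = 2 libraries per group). The call rested on all 4 cytoplasmic libraries: leaving out any 1 of them left a change of 1.36 to 1.57 with adjusted p of 0.0665 to 0.101 by limma. Without the 4 chow libraries of replicate 1 the change was 1.36 with adjusted p = 0.21 by limma.

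The 2 chaperones of the HSP70 and HSP90 families were somewhat above chow and did not pass. Hspa5 had 405.3 and 415.9 FPKM in DDC cytoplasm, against 349.9 and 266.9 FPKM in chow cytoplasm, a log2 difference of 0.42 (SE 0.31, adjusted p = 0.359 by limma). Hsp90b1 had 451.7 and 477.1 FPKM in DDC cytoplasm, against 347.2 and 330 FPKM in chow cytoplasm, a log2 difference of 0.45 (SE 0.28, adjusted p = 0.287 by limma). Neither pair of groups overlapped. Canx, the membrane lectin, had 138.8 and 146.2 FPKM in DDC cytoplasm, against 120 and 101.6 FPKM in chow cytoplasm, a log2 difference of 0.36 (SE 0.21). For its coding transcripts alone the diets overlapped, with 85.41 and 69.19 FPKM in DDC against 75.58 and 65.43 FPKM in chow.

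All 4 disulfide isomerases stood higher in the DDC libraries without a call. P4hb (protein disulfide isomerase, also a subunit of collagen prolyl hydroxylase) came nearest, with 696.6 and 622.5 FPKM in DDC cytoplasm against 402.3 and 442.6 FPKM in chow cytoplasm and a log2 difference of 0.64 (SE 0.24, adjusted p = 0.0719 by limma). Pdia3 had 314.9 and 281 FPKM in DDC cytoplasm, against 171.8 and 209.1 FPKM in chow cytoplasm. The values of Pdia6 were 172.2 and 177.8 FPKM in DDC cytoplasm, against 105.5 and 131.2 FPKM in chow cytoplasm. Their log2 differences were 0.65 (SE 0.35) and 0.57 (SE 0.46), and that of Pdia4 was 0.53 (SE 0.42).

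The BiP cofactors did not separate by diet in cytoplasm. Hyou1, the nucleotide exchange factor of BiP, had 25.69 and 28.33 FPKM in DDC cytoplasm, against 31.04 and 20.28 FPKM in chow cytoplasm. Sdf2l1, which works with BiP and its J-domain partners, had 23.19 and 24.25 FPKM in DDC cytoplasm, against 21.34 and 26.98 FPKM in chow cytoplasm. The chow libraries lay on both sides of the DDC libraries for both genes, and the log2 differences were 0.1 (SE 0.35) and -0.02 (SE 0.35).

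**Figure D1:**
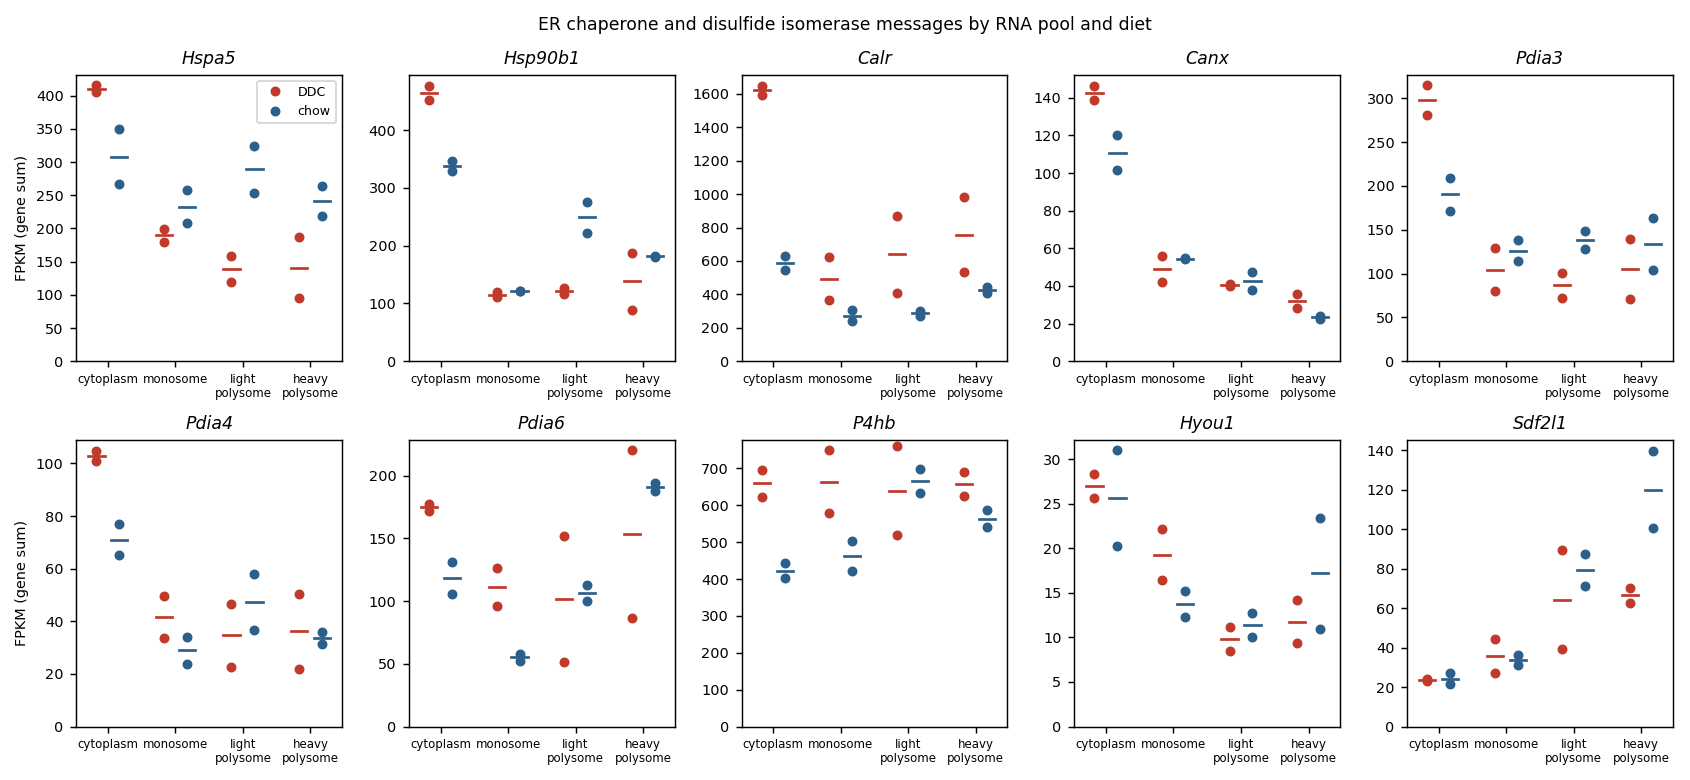
FPKM of each of the 10 genes (vertical axis, from 0, a scale of its own per panel) in the 4 RNA pools, with DDC libraries in red left of chow libraries in blue. Points are libraries and short lines are the means of 2. Calr is higher in both DDC than in both chow libraries of every pool, while Hspa5 is higher in DDC in cytoplasm and lower in DDC in the 3 ribosome fractions.

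On the ribosome fractions the diets were compared in the same way. Monosome libraries held no called member, 0 of 10, where 21% of all genes were called higher and 15.9% lower (37% in either direction). At an unadjusted p under 0.05, 1 member (P4hb) would have passed, and the adjusted p values by limma ran from 0.106 to 0.93. Pdia6, an isomerase that also acts on the IRE1 sensor, had 95.79 and 126.2 FPKM in DDC monosomes, against 52.44 and 57.84 FPKM in chow monosomes, a log2 difference of 0.98 (SE 0.46, adjusted p = 0.116 by limma). With equal FPKM totals 3 members were called higher in DDC on monosomes, Calr (adjusted p = 0.0303), Pdia6 (1.29, adjusted p = 0.0438) and P4hb (0.82, adjusted p = 0.00893), and the members' median was 0.54, against 0.25 as deposited. That scaling moved the median of all genes by 0.251. Quantile normalization called 2 members higher, Calr and P4hb. Calr had 363.6 and 624.8 FPKM in DDC monosomes, against 239.2 and 303.6 FPKM in chow monosomes. Calr, Pdia6, P4hb and Hyou1 were higher in both DDC libraries and Hspa5 and Hsp90b1 lower in both, while 34.8% of all genes were higher and 30.6% lower without overlap.

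On light polysomes Hspa5 and Hsp90b1 fell, 2 of 10 members, where 13.5% of all genes were called lower and 16.6% higher (30.1% in either direction). Hspa5 had 119 and 158 FPKM in DDC light polysomes, against 324.5 and 254.2 FPKM in chow light polysomes. Both DDC libraries lay well under both chow libraries, and the log2 change was -1.06 (SE 0.31, adjusted p = 0.0212 by limma). Hsp90b1 had 116.4 and 126.7 FPKM in DDC light polysomes, against 275.9 and 222.1 FPKM in chow light polysomes. It too had no overlap, with a log2 change of -1.02 (SE 0.28, adjusted p = 0.0178 by limma).

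Both calls depended on single libraries and on the scaling. For Hspa5 the adjusted p by limma was 0.123 without DDC light polysome replicate 1, 0.141 without chow light polysome replicate 1, 0.0501 without chow light polysome replicate 2 and 0.213 without all 4 chow libraries of replicate 1. For Hsp90b1 it was 0.0766 without DDC light polysome replicate 1, 0.0509 without DDC light polysome replicate 2, 0.124 without chow light polysome replicate 1 and 0.224 without all 4 chow libraries of replicate 1. With each library scaled to the same FPKM total, the changes were -0.73 for Hspa5 and -0.69 for Hsp90b1 (adjusted p = 0.137 and 0.146 by limma). That scaling moved the median of all genes by 0.239 on light polysomes.

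Calr again went the other way on light polysomes, with 409 and 869.9 FPKM in DDC against 273.1 and 298.2 FPKM in chow. Its coding transcript alone differed less, with 227.2 and 427.7 FPKM in DDC against 192.9 and 217.1 FPKM in chow. What follows is for the gene sum. The DDC libraries were both above the chow libraries but differed widely from each other, and the log2 difference of 1.06 (SE 0.38) missed the threshold with adjusted p = 0.0541 by limma. Scaled to equal totals it was 1.39 with adjusted p = 0.0135. Pdia3, the partner of the lectins, had 71.72 and 101.2 FPKM in DDC light polysomes, against 128.6 and 148.7 FPKM in chow light polysomes. Its groups did not overlap, and its log2 difference of -0.69 (SE 0.35) did not pass. Without overlap, 1 member (Calr) was higher and 3 (Hspa5, Hsp90b1 and Pdia3) lower in DDC, beside 36.5% and 33.9% of all genes. The 10 members had a median log2 change of -0.34 on light polysomes, against 0.01 for all genes.

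On heavy polysomes 0 of 10 members were called, where 13.9% of all genes were called higher and 10.9% lower (24.8% in either direction). At an unadjusted p under 0.05 by limma, 2 members (Hspa5 and Sdf2l1) would have passed. Hspa5 had 95.17 and 187 FPKM in DDC heavy polysomes, against 264.1 and 219.3 FPKM in chow heavy polysomes, a log2 difference of -0.85 (SE 0.31, adjusted p = 0.0647 by limma). The lowest chow library was above the highest DDC library. Sdf2l1 had 62.84 and 70.31 FPKM in DDC heavy polysomes, against 139.5 and 100.5 FPKM in chow heavy polysomes, also without overlap and with a log2 difference of -0.82 (SE 0.35, adjusted p = 0.113 by limma). Calr had 532.6 and 983.8 FPKM in DDC heavy polysomes, against 410.8 and 442.9 FPKM in chow heavy polysomes, a log2 difference of 0.76 (SE 0.38, adjusted p = 0.173 by limma). Calr, Canx and P4hb were higher in DDC without overlap, beside 29.9% of all genes, and Hspa5 and Sdf2l1 lower, beside 26.2%. For the coding transcripts of P4hb alone the diets overlapped, with 554 and 690.3 FPKM in DDC against 542.1 and 568.4 FPKM in chow. The median log2 change of the members was -0.42 on heavy polysomes, against 0.02 for all genes. With equal FPKM totals it was 0.08, under a scaling that moved the median of all genes by 0.278, and 3 members were called higher in DDC, Calr (1.26, adjusted p = 0.0276), Canx (0.91, adjusted p = 0.0163) and P4hb (0.72, adjusted p = 0.0266 by limma). Quantile normalization called 2 members higher, Calr and P4hb.

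**Figure D2:**
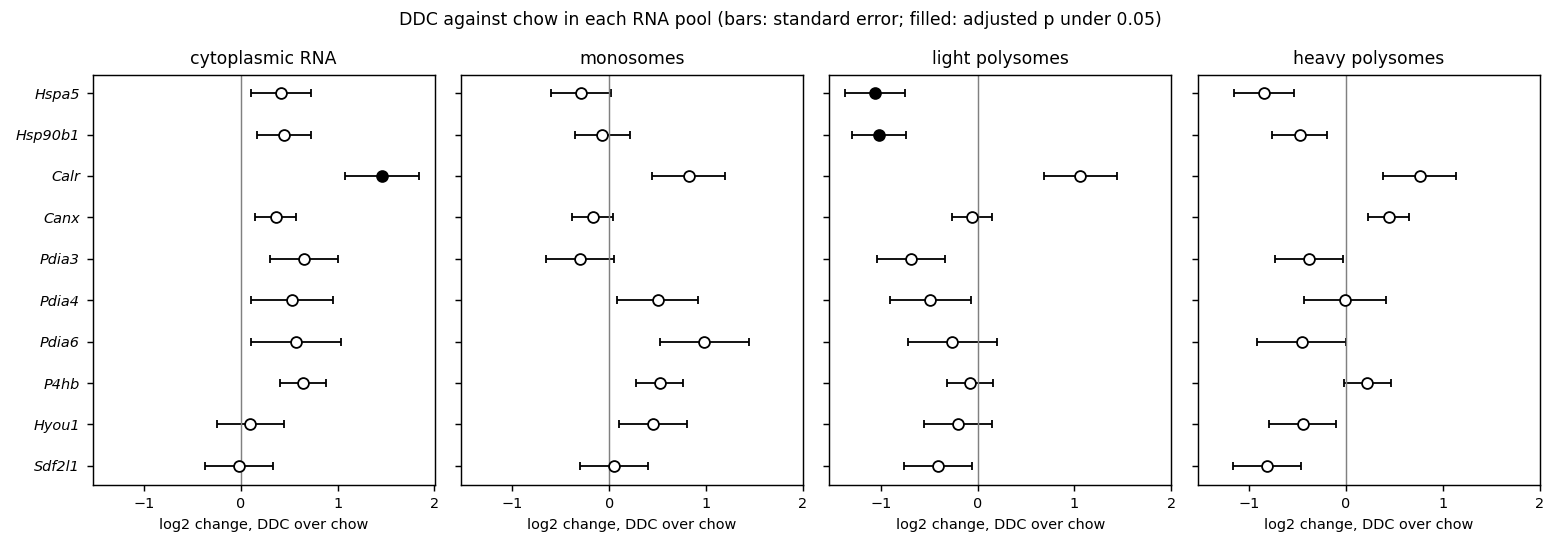
Log2 change of DDC over chow (horizontal axis, one panel per RNA pool) for the 10 genes, with bars of 1 standard error from limma; filled points passed the threshold. The filled points are Calr in cytoplasm (1.46) and Hspa5 and Hsp90b1 on light polysomes (-1.06 and -1.02).

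The spread between the DDC libraries was itself shared by the members. On light polysomes all 10 members were higher in preparation C than in preparation B, with a median log2 difference of 0.52, while 52.7% of all genes were higher in C. On heavy polysomes 9 of 10 were higher in C, with a median of 0.92, against 48.6% of all genes. Hsp90b1, for instance, had 187.8 FPKM in C and 89.48 FPKM in B on DDC heavy polysomes, and Pdia6 had 220.2 and 86.87 FPKM. On DDC monosomes 8 of 10 were higher in C, with a median of 0.38, against 50% of all genes. In chow, 7 of 10 on monosomes, 3 of 10 on light and 5 of 10 on heavy polysomes were higher in replicate 2. The shares of all genes there were 49.6%, 46.6% and 44.5%. Differences between the diets on the fractions therefore carry a spread within DDC that most members share. Without DDC heavy polysome replicate 2, which is preparation C, the heavy polysome change was -1.33 for Hspa5 (adjusted p = 0.00992 by limma) and -1.01 for Hsp90b1 (adjusted p = 0.00964 by limma). Without replicate 1, which is preparation B, it was -0.36 for Hspa5 (adjusted p = 0.424) and 0.05 for Hsp90b1 (adjusted p = 0.921 by limma).

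The next question was where on the ribosome gradient each message lay, taken as heavy polysomes against monosomes within a diet. In DDC 0 of 10 members were called, where 18.2% of all genes were called higher and 14.5% lower on heavy polysomes (32.7% in either direction). Canx and Sdf2l1, 2 of 10, had an unadjusted p under 0.05 by limma. In chow 2 members were called higher on heavy polysomes and 1 lower, where 23.7% of all genes were called higher and 21.1% lower (44.8% in either direction). Those were Sdf2l1 and Pdia6, and Canx. In DDC the result depended on the scaling: with equal FPKM totals 4 members were called lower on heavy polysomes, Hspa5 (-1.09, adjusted p = 0.0311), Canx (-1.17, adjusted p = 0.00293), P4hb (-0.6, adjusted p = 0.0438) and Hyou1 (-1.23, adjusted p = 0.0243 by limma). The members' median was then -0.61, against -0.01 as deposited, while the median of all genes moved by -0.367. Quantile normalization called 3 lower, Hspa5, Canx and P4hb. The difference between the diets in this placement was called for 0 of 10 members, where 0.996% of all genes were called higher and 0.902% lower (1.9% in either direction), and 1 member (Pdia6) had an unadjusted p under 0.05 by limma.

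Sdf2l1, with 221 codons the shortest of the 10, had 139.5 and 100.5 FPKM on chow heavy polysomes, against 31.1 and 36.29 FPKM on chow monosomes. The ratio of heavy polysome to monosome level was 4.49 and 2.77 in the chow preparations, and the log2 change was 1.79 (SE 0.35, adjusted p = 0.00157 by limma). Without the 4 chow libraries of replicate 1 it was 1.45 with adjusted p = 0.11 by limma. In DDC the gene had 62.84 and 70.31 FPKM on heavy polysomes, against 27.22 and 44.4 FPKM on monosomes, a log2 difference of 0.91 (SE 0.35, adjusted p = 0.0668 by limma). With the preparation as a block within diet, the adjusted p in DDC was 0.0284.

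Pdia6 had 188 and 194.2 FPKM on chow heavy polysomes, against 52.44 and 57.84 FPKM on chow monosomes, and a log2 change of 1.78 (SE 0.46, adjusted p = 0.0082 by limma). The 2 chow preparations were close, with ratios of 3.58 and 3.36. In DDC it had 86.87 and 220.2 FPKM on heavy polysomes, against 95.79 and 126.2 FPKM on monosomes, ratios of 0.91 in preparation B and 1.75 in preparation C. The difference between the diets was -1.45 (SE 0.66), with unadjusted p = 0.0482 and adjusted p = 0.242 by limma. The call in chow was lost when libraries were scaled to equal totals (0.98, adjusted p = 0.107), under quantile normalization (0.83, adjusted p = 0.194) and without the 4 chow libraries of replicate 1 (1.73, adjusted p = 0.166).

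Canx, in contrast, was lowest on heavy polysomes. It had 22.66 and 23.95 FPKM on chow heavy polysomes, against 54.18 and 54.89 FPKM on chow monosomes, ratios of 0.42 and 0.44. The log2 change was -1.19 (SE 0.21, adjusted p = 0.000848 by limma) and it was called under all 27 alternatives tried. In DDC it had 35.76 and 28.53 FPKM on heavy polysomes, against 56 and 41.88 FPKM on monosomes, a log2 difference of -0.59 (SE 0.21, adjusted p = 0.0548 by limma). With the preparation as a block the adjusted p in DDC was 0.0437, and the difference between the diets was 0.61 (SE 0.3, adjusted p = 0.287 by limma).

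As deposited, none of the remaining members was called between heavy polysomes and monosomes in either diet. Some lay near even or differed between preparations. Calr in both diets, Hsp90b1 in chow and Hyou1 in DDC were off even in both preparations. Hspa5 had ratios of 0.53 and 0.94 in DDC and 1.02 and 1.06 in chow. Hsp90b1 had 0.8 and 1.57 in DDC and 1.51 and 1.49 in chow, and Pdia4, an isomerase found with BiP, had 0.44 and 1.5 in DDC and 1.05 and 1.32 in chow. In all 3 the DDC preparation C stood near the chow preparations or above them and preparation B below. For Hsp90b1 the log2 difference in chow was 0.58 (SE 0.28, adjusted p = 0.12 by limma). With only the compared groups in the fit, Hsp90b1 was called in chow (adjusted p = 0.0372 by limma). Hyou1 had ratios of 0.57 and 0.64 in DDC and 1.54 and 0.9 in chow, a log2 difference of -0.68 in DDC (SE 0.35, adjusted p = 0.154 by limma, and 0.035 with the preparation as a block). Calr had 1.46 and 1.57 in DDC and 1.72 and 1.46 in chow, above even in both diets and not called. These Calr ratios are of the gene sum. The coding transcript of Calr alone was lower on heavy polysomes than on monosomes in each preparation. It had 321 and 448.1 against 363.6 and 581.8 FPKM in DDC, and 209 and 222.1 against 239 and 303.6 FPKM in chow. Under quantile normalization Hspa5 and P4hb in chow turned to -0.94 and -0.62 (adjusted p = 0.0492 and 0.0412 by limma), so that their near-even position depends on the scaling. Over the 10 members the heavy over monosome change of the gene sums was lower for longer coding sequences. Spearman rho was -0.77 in DDC and -0.55 in chow across genes that share the same libraries. It was not computed with coding transcripts alone.

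**Figure D3:**
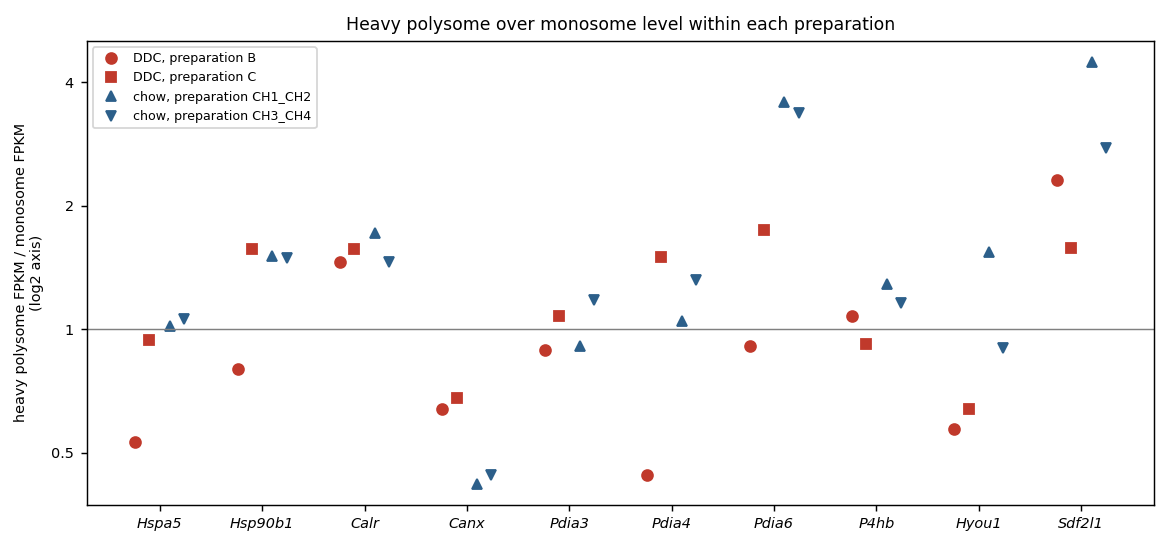
Ratio of heavy polysome to monosome FPKM (vertical axis, log2 scale, line at 1) for each gene in the 4 preparations, DDC in red left of chow in blue. Sdf2l1 and Pdia6 are highest in chow (up to 4.49 and 3.58), Canx is lowest in chow (0.42 and 0.44), and DDC preparation B is below C for Hspa5, Hsp90b1, Pdia4 and Pdia6.

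Set against cytoplasmic RNA, most of the chaperone messages were under-represented on heavy polysomes in DDC. There 7 of 10 members were called lower on heavy polysomes and 1 higher, where 20.4% of all genes were called lower and 26.3% higher (46.7% in either direction). In chow 2 of 10 were called lower and 1 higher, where 23.8% of all genes were called lower and 27.6% higher (51.4% in either direction). The median log2 change of the members was -1.36 in DDC and -0.5 in chow, against 0.06 and 0 for all genes. The count in chow depended on the scaling: 8 of 10 were called lower there with equal FPKM totals (median -2.03) and 8 with quantile normalization (median -1.92), while in DDC 9 were called lower under either (medians -2.6 and -2.54). The difference between the diets was called for 0 of 10 members, where 0.0596% of all genes were called higher and 0.0426% lower (0.102% in either direction, 12 genes), so the diets were not shown to differ. Hspa5 and Hsp90b1, 2 of 10, had an unadjusted p under 0.05 by limma. Hspa5 had the lowest, 0.0127, with a difference of -1.27 (SE 0.43, adjusted p = 0.322 by limma).

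The members called lower in DDC were Canx (-2.12), Hsp90b1 (-1.83), Hspa5 (-1.61), Pdia4 (-1.6), Pdia3 (-1.57), Calr (-1.16) and Hyou1 (-1.16), with adjusted p from 3.61e-05 to 0.0258 by limma. Hsp90b1 had 89.48 and 187.8 FPKM on DDC heavy polysomes, against 451.7 and 477.1 FPKM in DDC cytoplasm. Hspa5 had 95.17 and 187 FPKM on DDC heavy polysomes, against 405.3 and 415.9 FPKM in DDC cytoplasm. Every heavy polysome value was below every cytoplasmic value for both. Without DDC heavy polysome replicate 1 (preparation B) the calls of Calr (-0.72, adjusted p = 0.218), Hyou1 (-0.88, adjusted p = 0.129) and Pdia4 (-1.01, adjusted p = 0.0948 by limma) were lost. Those of Calr and Hyou1 were also lost without either DDC cytoplasmic library, with adjusted p of 0.0535 to 0.0936, and that of Calr without the 4 chow libraries of replicate 1 (-1.16, adjusted p = 0.0939), which share the estimate of the spread.

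In chow the called members were Canx (-2.2, adjusted p = 1.25e-05) and Hsp90b1 (-0.89, adjusted p = 0.0197 by limma). Hsp90b1 lost its call without any 1 of the 4 libraries compared, with adjusted p of 0.0655 to 0.087, and without the 4 chow libraries of replicate 1 (0.239). With the preparation as a block, Pdia4 (-1.06) and Hyou1 (-0.61) were also called in chow, with adjusted p of 0.0237 and 0.0395. Sdf2l1 was the member called higher on heavy polysomes in both diets, by 1.45 in DDC (adjusted p = 0.00559) and 2.26 in chow (adjusted p = 0.000246). Scaled to equal totals its values were 0.24 and 0.75 (adjusted p = 0.539 and 0.0578), under a scaling that moved the median of all genes by -0.778 in DDC and -0.818 in chow. P4hb, at 0.42 in chow, turned to -1.12 with equal totals (adjusted p = 0.000592 by limma).

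The gene sums of Calr and Canx combined a full-length coding transcript with short transcripts that the annotation does not class as coding, and these were spread unevenly over the pools. For Calr a retained-intron transcript of 943 bases held 60.1% and 64.5% of the FPKM in DDC cytoplasm and 56.2% and 57.2% in chow cytoplasm. It held 0% and 6.9% on DDC monosomes, 0% on both chow monosome libraries, and 39.7% and 54.4% on DDC heavy polysomes. On chow heavy polysomes it held 49.1% and 49.9%. Its share on light polysomes was 44.4% and 50.8% in DDC and 29.3% and 27.2% in chow. The coding transcript of 2184 bases had 656.9 and 566.3 FPKM in DDC cytoplasm, against 237.8 and 269.6 FPKM in chow cytoplasm. With protein-coding transcripts alone, the cytoplasmic change of Calr was 1.26 (adjusted p = 0.0142 by limma), and the fall on DDC heavy polysomes against cytoplasm was -0.68 and no longer called (adjusted p = 0.0943).

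Canx behaved alike in cytoplasm, where a processed transcript of 708 bases held 38.2% and 52.5% of the FPKM in DDC and 36.7% and 35.2% in chow, and 0% on monosomes and heavy polysomes. With coding transcripts alone the heavy polysome change against cytoplasm was -1.26 in DDC and -1.55 in chow (adjusted p = 0.000607 and 9.59e-05 by limma), smaller than for the gene sum and still called. Its change against monosomes in chow stayed at -1.19 (adjusted p = 0.000773). P4hb also had a processed transcript, of 414 bases, with 13.7% and 19.4% on chow monosomes and 13.8% and 0% on DDC monosomes. On heavy polysomes that transcript held 11.5% and 0% in DDC and 0% and 3.1% in chow. A short coding transcript of P4hb, of 770 bases, held 35.1% and 43.3% on chow light polysomes and 0% on both chow monosome libraries. The deposited values divide fragments between overlapping transcripts of a gene by estimation, so the shares carry an error that was not tested.

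**Figure D4:**
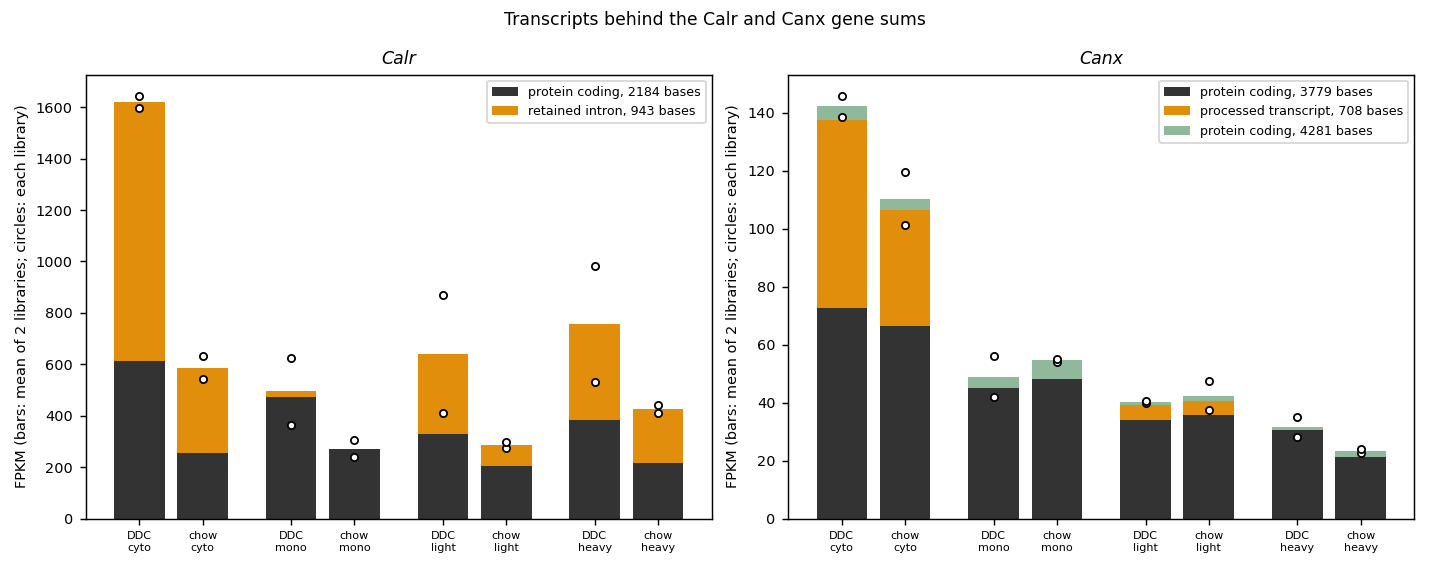
FPKM of the transcripts of Calr and Canx that held at least 10% of the gene in some group (stacked bars, mean of 2 libraries, DDC left of chow in each pool), with circles for the sum in each library. The orange transcripts without a coding class take a large part of the cytoplasmic sums and little or nothing on monosomes.

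Across the 16 libraries the members correlated with each other to different degrees. Of 45 pairs, 33 had a Pearson correlation above 0 (log2 values, n = 16 libraries that share preparations and scaling) and 4 exceeded 0.8: Hsp90b1 with Pdia3 (0.881), Hsp90b1 with Pdia4 (0.87), Hspa5 with Hsp90b1 (0.864) and Hspa5 with Pdia3 (0.835). The median over the 45 pairs was 0.479, and the share of pairs above 0 among all genes was not computed. P4hb and Sdf2l1 had median correlations of 0.017 and -0.32 with the other members. Sdf2l1 ran against Canx, with a correlation of -0.859. The genes outside the group whose pattern over the 16 libraries was nearest to the mean of the members, among 4266 genes averaging at least 10 FPKM, were Atp1b1 (0.909), Acly (0.85), Tfg (0.84), Mttp (0.84) and Cyp2j6 (0.834).

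The rest of the ER folding machinery gives the setting. In cytoplasm 9 of 34 tested genes of other ER folding factors were called higher in DDC and 0 lower, beside 12.7% and 9.68% of all genes, with a median log2 change of 0.52. Fkbp11, a prolyl isomerase of the secretory pathway, averaged 87.4 FPKM in DDC and 7.53 FPKM in chow cytoplasm (log2 change 3.49, adjusted p = 0.0028 by limma), and Calu, a calcium-binding protein of the ER, 64.1 and 24.7 FPKM (1.34, adjusted p = 0.00287). On heavy polysomes 3 were called higher and 4 lower, shares near the 13.9% and 10.9% of all genes. Among them Creld2, an ER stress-induced protein, averaged 36.9 FPKM in DDC and 141 FPKM in chow (log2 change -1.98, adjusted p = 0.0233 by limma). N-glycosylation genes, whose sugars the lectin chaperones read, had 6 of 31 called higher and 0 lower in cytoplasm, beside 12.7% and 9.68% of all genes. On monosomes 10 were called higher and 1 lower, beside 21% and 15.9% of all genes. Alg3, a mannosyltransferase, averaged 21 FPKM in DDC and 5.84 FPKM in chow cytoplasm (1.71, adjusted p = 0.00125), and Dad1, an oligosaccharyltransferase subunit, 153 and 66.8 FPKM (1.17, adjusted p = 0.00858).

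Of 31 ER-associated degradation genes, 5 were called higher and 4 lower in cytoplasm, shares near the 12.7% and 9.68% of all genes. Edem1, a lectin that directs misfolded glycoproteins to degradation, averaged 91.6 FPKM in DDC and 29.9 FPKM in chow cytoplasm (1.58, adjusted p = 0.000504 by limma). Derl3 averaged 0.602 FPKM in DDC and 9.97 FPKM in chow on heavy polysomes (-2.8, adjusted p = 0.00286). Of 22 tested translocon and signal peptide genes, 3 were called higher and 1 lower in cytoplasm, beside 12.7% and 9.68% of all genes. On light polysomes 1 was called higher and 5 lower, beside 16.6% and 13.5% of all genes there. Sec61a1, the channel subunit, averaged 95.1 FPKM in DDC and 41.9 FPKM in chow cytoplasm (1.16, adjusted p = 0.0185).

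Of 25 transducers and targets of the unfolded protein response, 2 were called higher in DDC and 1 lower in cytoplasm, beside 12.7% and 9.68% of all genes. On monosomes 11 were called higher and 1 lower, beside 21% and 15.9% of all genes, with a median log2 change of 0.39. Xbp1, Atf4 and Ddit3, transcription factors of the response, were called between the diets in none of the 4 pools (adjusted p from 0.118 to 0.925 by limma). Xbp1 averaged 115 FPKM in DDC and 78.7 FPKM in chow cytoplasm, and Ddit3 (CHOP) 10.5 and 9.53 FPKM. Herpud1, a target of the response, averaged 40.8 FPKM in DDC and 177 FPKM in chow cytoplasm, a log2 difference of -1.77 (SE 0.64) that missed the threshold (adjusted p = 0.0696). Atf3 was called higher in DDC in every pool, at 7.67 FPKM in DDC and 0.994 FPKM in chow cytoplasm (2.24, adjusted p = 0.00413). Ppp1r15b, of the same list, was called lower in DDC in every pool. It averaged 10.7 FPKM in DDC and 26.5 FPKM in chow cytoplasm (-1.24, adjusted p = 0.00357 by limma). Atf4, whose message carries inhibitory upstream reading frames, was lower on heavy polysomes than on monosomes in both diets, by -1.98 in DDC (adjusted p = 0.000245) and -2.25 in chow (adjusted p = 4.86e-05).

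The chaperones of the cytosol did not share the direction of the ER members in cytoplasm. Of 25, 0 were called higher in DDC cytoplasm and 1 lower, beside 12.7% and 9.68% of all genes. Their median log2 change was -0.42, against 0.49 for the ER members and 0.01 for all genes. On light polysomes 0 were called higher and 7 lower, beside 16.6% and 13.5% of all genes. Dnaja1, a J-domain partner of cytosolic HSP70, averaged 10.1 FPKM in DDC and 49.5 FPKM in chow there (-2.18, adjusted p = 0.00167 by limma), and Hsph1, its nucleotide exchange factor, 5.73 and 30.1 FPKM (-2.2, adjusted p = 0.0024). Counts of calls over all genes depended on the scaling: with equal FPKM totals, 71.8% of the calls in cytoplasm were higher in DDC, against 56.7% as deposited, and 81.8% against 56.1% on heavy polysomes.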

How the data were processed

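The deposited table gives FPKM per transcript for 16 libraries, scaled between libraries by Cuffnorm. The tools listed in the submitters' processing notes are STAR 2.4.2a and Cuffnorm, beside bcl2fastq 2.17.1.14 and Picard 1.119 and the trimmer Trimmomatic, with the genome GRCm38. Cuffnorm options are not given in the sources used here. Per the labels' protocols a stranded poly(A) kit was used. Of 117567 transcript rows, 99.29% matched GENCODE M21, and FPKM were summed per gene. Genes with at least 1 FPKM in 2 libraries were tested with limma 3.58.1 (R 4.3.3) on log2(FPKM + 1), a scale that understates changes of low genes, with 8 group means, a variance trend and Benjamini-Hochberg adjustment over all genes; calls have adjusted p under 0.05. The fit had 8 residual degrees of freedom shared by all groups. Where a gene read 0 in both libraries of a group but 100 FPKM or more in another library, that group was set to missing (49 genes, none a member). The script was tested on simulated data.

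Members and gene lists were chosen with earlier results of these data known. All members were tested in every comparison, but for the ribosome fractions the text gives values for only part of them. Of each other list, up to 3 called genes per direction by lowest p, averaging 5 FPKM or more in a group, could be named. Replicate numbers mark a shared preparation of the fractions within a diet, per the labels; differences between replicates correlated at 0.357 to 0.749 between chow pools and 0.305 to 0.365 between DDC fractions, and at -0.05 to 0.161 between DDC cytoplasm and the DDC fractions. The numbers do not pair the diets (-0.094 to 0.07).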

Additional observations from a re-analysis of the deposited data

How the results depend on the processing

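Of 2700 member values recomputed under the alternatives, 2577 kept their side of the threshold with no called value changing direction (93 of these, uncalled in both, changed sign), 79 were newly called, 40 lost a call and 4 reversed. The reversals were P4hb on heavy polysomes against cytoplasm in chow (-1.12 with equal totals, -1.29 with quantile normalization), and, with quantile normalization, Hspa5 (-0.94) and P4hb (-0.62) on heavy polysomes against monosomes in chow. The cause was not tested.

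For the contrast between diets in the change on heavy polysomes from cytoplasm, the count of genes called was 12 as reported, 5 with a pseudocount of 0.1, 50 without a filter, 3 with a filter of 5 FPKM, 49 with equal totals, 7 with quantile normalization, 25 with zeros kept and 1 with only the compared groups. For heavy polysomes against monosomes it was 223, against 404 with coding transcripts alone, 623 with the replicate block within diet, 115 without the 4 chow libraries of replicate 1 and 1 with only the compared groups. Without those chow libraries the DDC against chow counts were 970 in cytoplasm (2630 as reported), 1814 on light polysomes (3541) and 1826 on heavy polysomes (2911), and the chow counts were 3052 for heavy polysomes against monosomes (5270) and 3612 against cytoplasm (6047). With only the compared groups they were 4263 in cytoplasm, 1742 on monosomes (4346) and 347 on heavy polysomes for the diets, and 649 in DDC (3842) and 2711 in chow for heavy polysomes against monosomes. Leaving out each library in turn gave 1186 to 2783 in cytoplasm, 2939 to 4535 on monosomes, 2009 to 3731 on light polysomes and 2048 to 3070 on heavy polysomes. For heavy polysomes it gave 2823 to 4045 in DDC and 4260 to 5369 in chow against monosomes, 3647 to 5680 and 4658 to 6175 against cytoplasm, and 36 to 407 and 2 to 44 for the differences between diets.

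A replicate block shared by the diets, although the numbers do not pair them, called Calr on light polysomes (adjusted p = 0.0175 by limma) and monosomes (0.0454) and P4hb in cytoplasm (0.0489). The block within diet changed no member call beyond those given in the report.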
